A study of Mus musculus with 2 samples.

Results

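A set of 49 genes that write, erase or read DNA methylation or modify histones was examined for differences in DNA methylation between CD137+ and PDGFRα+ adipose progenitors. Differentially methylated regions from the list that the authors deposited were taken when they overlapped the RefSeq body of one of these genes extended by 5 kb on both sides. This gave 60 of the 34139 regions in the list, at 25 of the 49 genes. All 49 symbols were found in the RefSeq table. The genes were split into 16 DNA methylation genes (writers, erasers and readers), 32 histone enzyme genes and Ctcf, the insulator factor, which stands in neither group.

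Whole-genome bisulfite sequencing gave 1 library of CD137+ and 1 library of PDGFRα+ progenitors from C57BL/6 mice, both exposed to dexamethasone (DEX), a synthetic glucocorticoid. CD137 is the product of Tnfrsf9 and is linked to beige fat precursors, and PDGFRα (CD140a) marks adipose progenitors more widely. Cells were sorted magnetically from subcutaneous or visceral fat, cultured and exposed to an adipogenic cocktail. The labels do not say which depot, how many mice or which age stood behind a library. DEX is thus shared by both groups, and its effect was not measured.

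The deposited list gives a position and a signed score for each region, with no level per library, read depth or number of cytosines. The score has no stated unit and its order of subtraction is not stated. The name of the list puts PDGFRα+ cells before CD137+ cells. Under a subtraction in that order, PDGFRα+ cells would be less methylated where the score is negative. The regions are therefore called negative or positive. Each group has 1 library, so there was no replicate spread and no test, and counts are read beside the same counts over all 21887 protein-coding genes. Intervals are 95% intervals for counting error only, and regions are not independent replicates. Neither transcript levels nor a methylation level per library were given, so the identity of the sorted cells could not be checked. As a description, 3 of 6 progenitor markers had a region, with none at Tnfrsf9, the gene of the sorted CD137, against 35.1% of all protein-coding genes. A region stood at 1 of 4 blood cell markers (Csf1r), at all 4 endothelial markers (6 of 14 regions negative) and at all 4 mural markers (6 of 7 negative). The part of other cell types in the results was not tested.

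As background, DNMT3A and DNMT3B place methyl groups on cytosine, DNMT1 with UHRF1 copies them at replication, and TET enzymes oxidise them so that TDG and repair can restore cytosine. MBD proteins link methylated DNA to repressive complexes. Histone enzymes act beside them: KMT2 enzymes methylate H3K4 at active promoters and enhancers, Polycomb and H3K9 methyltransferases mark silent chromatin, and acetyltransferases and deacetylases set histone acetylation. In fat cells, EHMT1 is known as a partner of PRDM16 in brown fat fate, and HDAC9 as a brake on adipogenic differentiation.

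Promoter windows were crossed by a region at Kmt2a and Mbd3. Both are shown because their regions lay nearest to a gene start. Among regions of like width (within 1.2-fold), 1.18% scored higher than the Kmt2a region and 0.339% higher than the Mbd3 region in absolute terms. RefSeq windows (GRCm38.p6, the assembly that mm10 names) were found for 43 of the 49 genes, with none for Mbd1, Mbd2, Kmt2b, Kdm6b, Hdac1 and Hdac3. Each runs from 250 bases before a listed start to 50 after it, and the first 280 bases are printed, with the part inside the region in capitals. The Kmt2a sequence is the minus strand of chr9:44881260-44881539, and the Mbd3 sequence is the minus strand of chr10:80399502-80399781.
Kmt2a: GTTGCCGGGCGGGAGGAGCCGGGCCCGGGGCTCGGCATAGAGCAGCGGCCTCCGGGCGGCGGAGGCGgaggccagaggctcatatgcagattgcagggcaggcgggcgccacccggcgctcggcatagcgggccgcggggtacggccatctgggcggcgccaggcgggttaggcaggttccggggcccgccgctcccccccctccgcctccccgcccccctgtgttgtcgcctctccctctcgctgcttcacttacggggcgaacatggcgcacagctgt
Mbd3: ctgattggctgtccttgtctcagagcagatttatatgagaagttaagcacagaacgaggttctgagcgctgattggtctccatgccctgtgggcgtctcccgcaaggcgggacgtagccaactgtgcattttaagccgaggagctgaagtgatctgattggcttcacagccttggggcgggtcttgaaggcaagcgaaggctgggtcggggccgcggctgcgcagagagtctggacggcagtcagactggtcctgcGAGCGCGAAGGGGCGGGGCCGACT
The Kmt2a region (chr9:44881473-44881577, 105 bp, score -133) lay upstream, from 184 bases before the listed start, and outside the gene body. Its 67 capitals hold 10 of the 32 CG dinucleotides printed. Over the full window Kmt2a has 36 CG, a number reached by 8.16% of the 21263 windows of protein-coding genes. The Mbd3 region (chr10:80399405-80399525, 121 bp, score -202) lay on the other side of the start, from 6 bases inside the gene. Its 24 capitals hold 4 of the 19 CG printed. The full Mbd3 window has 22 CG, reached by 31.3% of all windows. At least 1 CG stood in 95.4% of all windows.

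A region in the promoter window was thus found at 2 of 43 members (4.65%), against 1.02% of the 17492 protein-coding genes with a listed start. The 2 sets of windows were not alike. Members had 62 windows with a median of 25.5 CG, and all protein-coding genes had 21263 windows with a median of 13 CG. Within 2 kb of a listed start, 4 of 43 members (9.30%) had a region, against 6.14% of genes. The other members in this group were Dnmt3l, 0.277 kb inside the gene, and Setdb1, 0.915 kb upstream. Mbd1, Mbd2, Kmt2b and Kdm6b have no listed start and were left out of these counts. Each has a region within 2 kb of an end of the gene, but without a strand that end cannot be called the start. These shares rest on very few members, and the differences from the background were not tested.

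**Figure D1:**
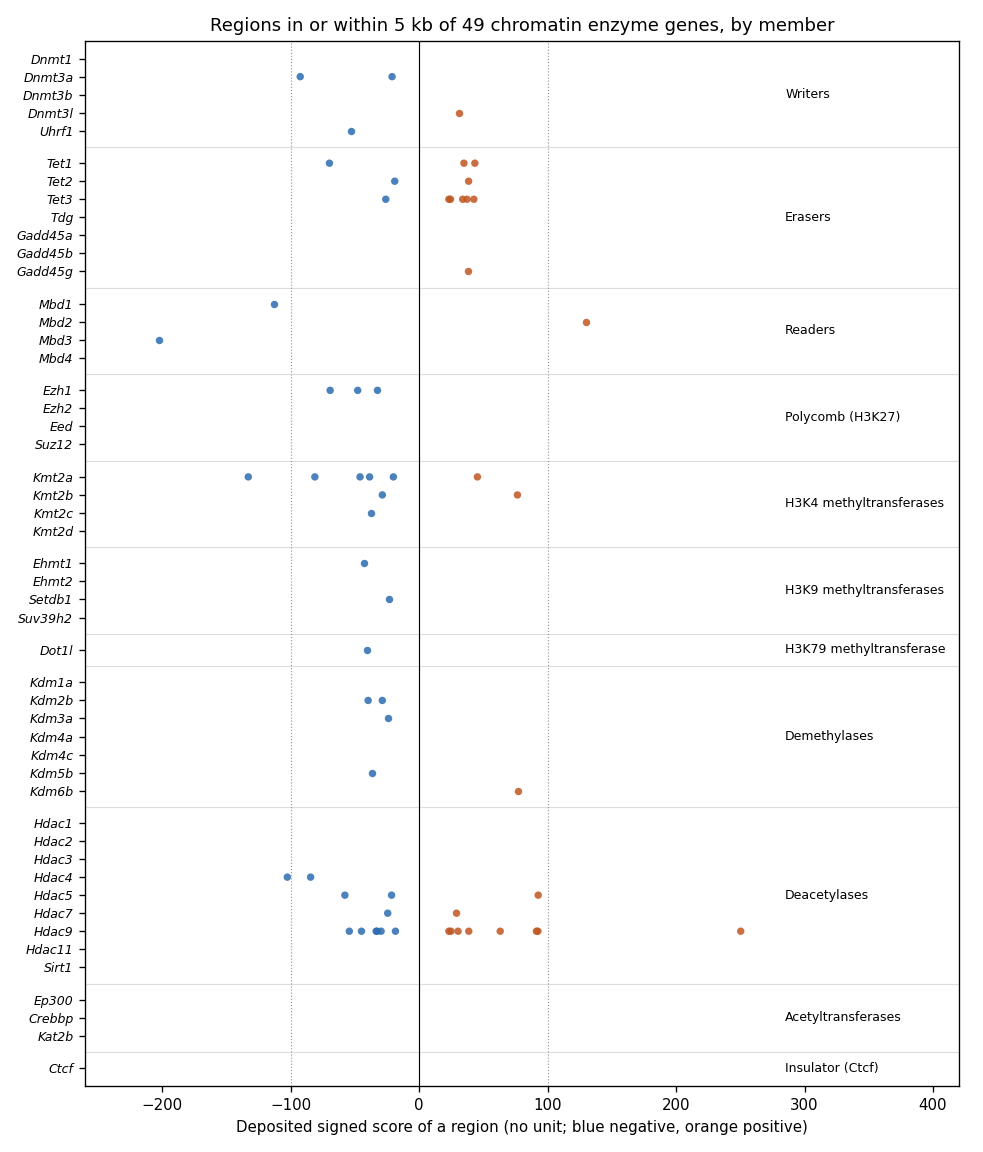
Deposited signed score (x axis, no unit) of each of the 60 regions, 1 point per region, for all 49 genes grouped by role; dotted lines mark an absolute score of 100. A total of 24 genes carry no point, and 6 points lie beyond the dotted lines, at Mbd1, Mbd2, Mbd3, Kmt2a, Hdac4 and Hdac9.

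Across the whole set, 25 of 49 genes (51.0%) had a region, against 35.1% of all protein-coding genes. Negative regions stood at 21 members (42.9%, against 27.8% of all genes) and positive regions at 12 (24.5%, against 16.9%). Of the 25 genes, 13 had negative regions alone, 4 had positive regions alone and 8 had both. The 60 regions were 36 negative and 24 positive, or 60.0% negative (95% Wilson interval 47.4 to 71.4), against 67.4% in the whole list. Members were longer than most genes, with a median of 41.0 kb against 17.2 kb, and longer genes hold more regions. Per 100 kb of gene and flank the members held 1.47 regions (95% Poisson interval 1.12 to 1.89) against 1.62 for all protein-coding genes. The higher share of genes with a region was therefore not matched by a higher density.

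Shares were therefore also taken by gene length. Among members of 10 to 30 kb, 5 of 15 (33.3%) had a region against 28.7% of all genes of that length. At 30 to 100 kb it was 12 of 21 (57.1%) against 51.9%. At over 100 kb it was 6 of 9 (66.7%) against 86.2%, since Crebbp, Kdm4c and Kat2b had none. The 4 shortest members, under 10 kb, had regions at Mbd3 and Gadd45g and none at Gadd45a and Gadd45b, against 13.9% of genes.

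**Figure D2:**
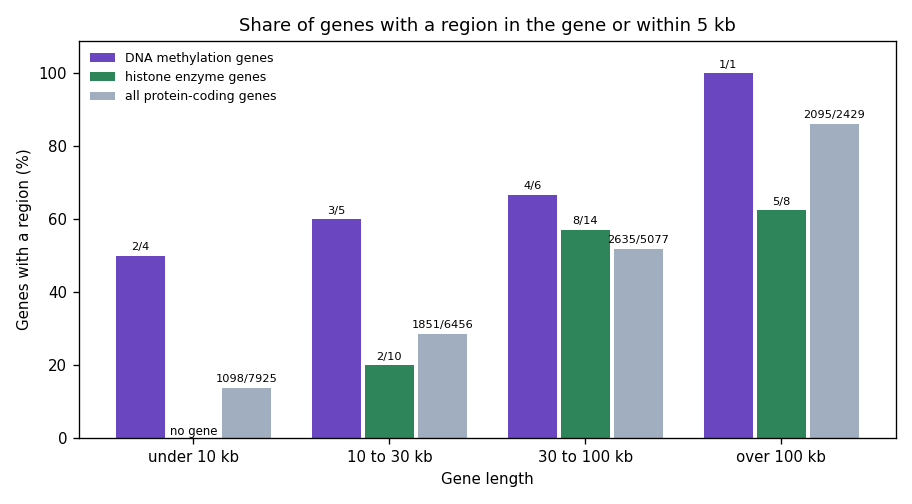
Percent of genes (y axis) that had a region in their body or its 5 kb flanks, by gene length (x axis), for DNA methylation genes, histone enzyme genes and all protein-coding genes; the numbers over the bars are genes with a region over genes in the class. Shares rise with length in all protein-coding genes from 13.9% to 86.2%, and the 8 histone enzyme genes over 100 kb stand at 62.5%.

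DNA methylation genes held more regions per 100 kb than histone enzyme genes and a lower share of negative ones, with intervals that overlap. Of 16 DNA methylation genes 10 (62.5%) had a region, and of 32 histone enzyme genes 15 (46.9%), against 35.1% of all protein-coding genes. Their median lengths were 21.2 kb and 42.8 kb. Among all protein-coding genes the share was 28.7% at 10 to 30 kb and 51.9% at 30 to 100 kb. Density was 2.41 regions per 100 kb (1.45 to 3.77) at DNA methylation genes and 1.26 (0.906 to 1.71) at histone enzyme genes. Of the 19 regions at DNA methylation genes 8 were negative, or 42.1% (23.1 to 63.7). Of the 41 at histone enzyme genes 28 were negative, or 68.3% (53.0 to 80.4), near the 67.4% of the whole list. These differences were not tested. The values rested on a few genes. Without Tet3, with 6 regions, the DNA methylation genes had 1.90 regions per 100 kb, 53.8% of 13 negative. Without Tet1, Tet2 and Tet3 they had 1.61 per 100 kb, 62.5% of 8 negative. All protein-coding genes had 1.62 per 100 kb and 66.6% negative, and the whole list was 67.4% negative. Without Hdac9, with 14, the share at histone enzyme genes was 81.5% (63.3 to 91.8) of 27.

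Writers had 4 regions, 3 of them negative, at 3 of 5 genes (60.0%, against 35.1% of all protein-coding genes). Dnmt3a, a de novo methyltransferase gene of 112.9 kb, had 2, both negative and inside the gene. One was narrow but high for its width (65 bp, score -92.5, with 1.09% of regions of like width scoring higher), and the other scored -21.0. Uhrf1, which brings DNMT1 to newly replicated DNA, had 1 negative region, with a score of -53.3, 3.92 kb inside a listed start. Dnmt3l, a cofactor without catalytic activity of its own, had a positive region of 54 bp with a score of 31.1. That region also lies within 5 kb of Aire and cannot be assigned to 1 gene. Dnmt1 and Dnmt3b had none. The nearest regions lay 12.4 kb from Dnmt1 (score -54.1) and 27.2 kb from Dnmt3b (score -89.9).

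Of 12 regions at 7 eraser genes 9 were positive, 8 of them at the 3 TET genes, and 25% were negative (8.89 to 53.2), against 67.4% of the whole list. Tet3 alone gave 5 of the positive ones, and without it the erasers had 4 positive and 2 negative regions. Tet3 held 6 inside the gene. Its 5 positive regions scored 42.6, 34.0, 24.5, 23.2 and 37.3 and lay within 27.4 kb of the 94.8 kb gene, from 17.6 to 44.9 kb inside its upstream end. The negative one, further in at 64.9 kb, scored -25.9. Tet1 held positive regions with scores of 34.9 and 43.4 and a negative one of 249 bp with a score of -69.8, all between 35.6 and 39.7 kb inside its listed start. Tet2 had a positive region of score 38.6 and a negative one of score -18.9. The 11 TET regions had absolute scores of at most 69.8, and none lay within 2 kb of a listed start. The nearest, the Tet3 region of score 37.3, stood 2.06 kb inside the listed start of Tet3. Measured from that start, the 5 positive Tet3 regions lay at 2.06 to 29.4 kb. The TET genes are 81.5 to 94.8 kb long. Among protein-coding genes within 1.2-fold of the length of Tet3, 5.46% had as many regions and the median was 1. For Tet1, with 3 regions, the share was 23.0%. Of the other erasers, Gadd45g, a stress-inducible gene linked to demethylation, had a positive region 2.25 kb upstream (score 38.4). Tdg, which encodes the glycosylase that removes oxidised methylcytosine, had its nearest region 167.3 kb away, and Gadd45a 104.8 kb away. Gadd45b had none within 5 kb.

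Readers had 1 region each at 3 of 4 genes, against 35.1% of all protein-coding genes, and all 3 had an absolute score over 100. Such scores were found in 15.5% of the whole list and at 10.8% of all protein-coding genes. None of the 16 regions at writers and erasers reached 100, and the difference from readers was not tested. Median widths were 59.5 bp at writers, 96.5 bp at erasers and 190 bp at readers. In the whole list, scores rise with width. The Mbd3 region had 121 bp. Wider regions at Tet1 (249 bp, score -69.8), Tet3 (177 bp, -25.9) and Tet2 (169 bp, 38.6) scored lower in absolute terms. The part of width in the difference between roles was not tested. Mbd3 encodes a subunit of the NuRD repressor complex that in mammals binds methylated DNA weakly. Its region at the gene start, described above, scored -202. In the whole list, 3.13% of regions scored higher in absolute terms. The gene lies at chr10:80392539-80399531. This region also lies within 5 kb of Uqcr11, a gene of the respiratory chain. Mbd1, which binds methylated CpG, had a region of 257 bp with a score of -113, 1.60 kb outside the gene and shared with Cfap53, and 32.4% of regions of like width scored higher. Mbd2, the methyl-CpG binding subunit of an alternative NuRD complex, had a positive region of 190 bp with a score of 130.0 inside the gene, where the share of like-width regions that scored higher was 10.6%. Mbd4, which also carries a thymine glycosylase, had none within 5 kb, and the nearest stood 10.2 kb away (score -52.0). The readers thus held both signs.

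At genes of histone methyltransferases, Polycomb subunits included, 13 of 15 regions were negative, or 86.7% (62.1 to 96.3), an interval that includes the 67.4% of the whole list, and the 2 positive ones stood at Kmt2a and Kmt2b. Regions stood at 7 of the 13 genes (53.8%), against 35.1% of all protein-coding genes and 51.9% of those of 30 to 100 kb.

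Kmt2a (chr9:44803355-44881352), which encodes the H3K4 methyltransferase MLL, had 6 regions. Beside the promoter region of score -133, it had negative regions inside the gene with scores of -20.0, -81.1 and -38.5, a positive one with a score of 45.4, and a negative one of -46.0 lying 2.98 kb downstream. The positive region stood 5.50 kb from the region of -81.1, so the sign changed within the gene. That last, outer region is shared with Tmem25 and Ttc36. Among protein-coding genes within 1.2-fold of its length, 3.32% had as many regions. Kmt2b, its close relative, had a negative region (score -28.6) and a narrow positive one of 55 bp with a score of 76.6, shared with Zbtb32. Kmt2c, which acts at enhancers, spans 227.1 kb and had a single region of score -37.3, where the median for genes of like length was 4. Kmt2d had none.

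**Figure D3:**
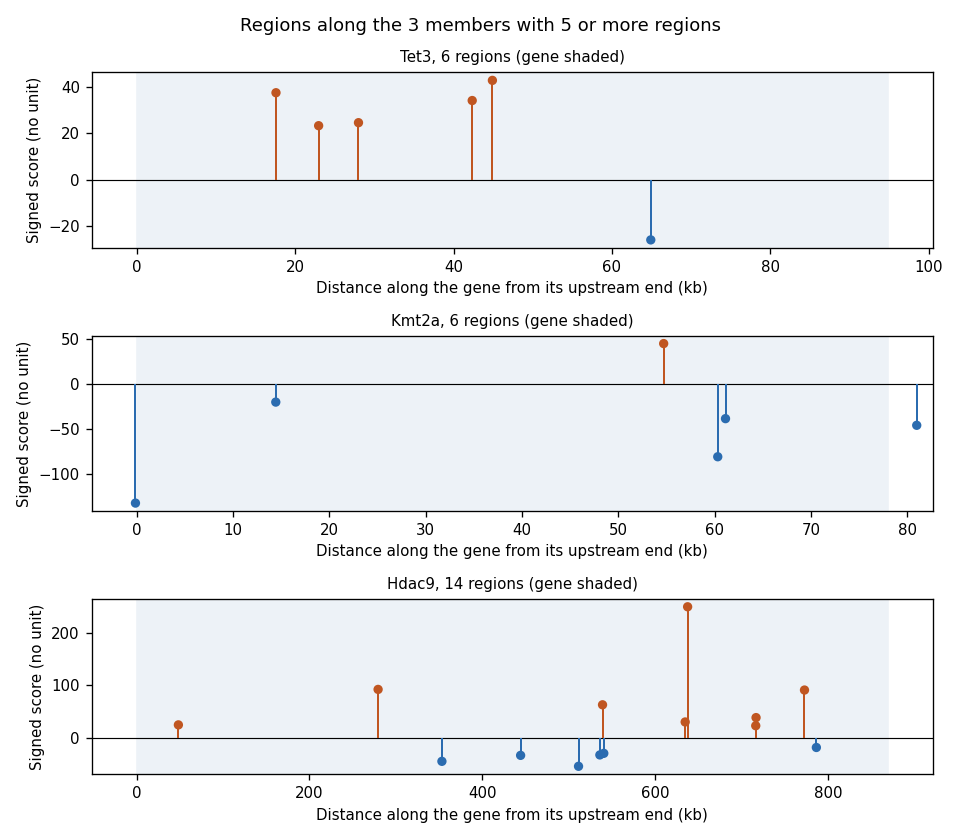
Signed score (y axis, no unit) of each region against its distance from the upstream end of the gene (x axis, kb) for Tet3, Kmt2a and Hdac9, with the gene body shaded; each panel has its own scales. The 5 positive Tet3 regions lie together between 17.6 and 44.9 kb, the Kmt2a region of -133 lies just outside the gene start, and Hdac9 holds both signs along its length.

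Of the 4 Polycomb members, only Ezh1 had regions within 5 kb. The share was 35.1% of all protein-coding genes and 51.9% of those of 30 to 100 kb, and the difference was not tested. EZH1 is the catalytic subunit that prevails in non-dividing cells. Its 3 regions were all negative. A pair stood 4.51 and 5.03 kb inside the start, with scores of -69.2 (176 bp) and -47.8 (264 bp), and the third stood 2.19 kb beyond the gene (score -32.4, shared with Cntnap1). Ezh2, its counterpart in dividing cells, and the core subunit genes Eed and Suz12 had none. Their nearest regions lay 64.5, 58.4 and 24.6 kb away, the last with a score of -329. Outside the members, the Polycomb genes Bmi1, Rnf2 and Aebp2 had 1 region each, and Jarid2, Mtf2 and Ring1 had none. At H3K9 methyltransferase genes, Ehmt1 had 1 region (score -43.2) inside its 128.9 kb gene, 113 kb from the start. Setdb1 had the upstream region already named, of 60 bp and a score of -23.4. Ehmt2 and Suv39h2 had none. Dot1l, the H3K79 methyltransferase gene, had 1 negative region with a score of -40.4. It lies 355.6 kb from Mbd3 on chromosome 10.

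Histone demethylase genes had regions in 4 of 7 members (57.1%), with absolute scores from 24.3 to 76.9. The share was 35.1% of all protein-coding genes and 51.9% of those of 30 to 100 kb, and the median demethylase gene was 52.3 kb long. Kdm2b, whose product binds unmethylated CpG islands, had 2 (scores -39.6 and -28.6). Kdm3a, an H3K9 demethylase gene, had 1 (score -24.3), and Kdm5b, an H3K4 demethylase gene, 1 (score -36.8). Kdm6b, which encodes an H3K27 demethylase, had the one positive region of this role, of 79 bp with a score of 76.9. Of regions of like width 3.91% scored higher. It is shared with Cyb5d1, Naa38 and Tmem88. Kdm1a, Kdm4a and Kdm4c had none. Kdm1a stood just outside the window that defined the set, with a region 5.18 kb away (score -35.1), as did Ehmt2 at 7.45 kb (score -32.3). The outermost regions inside the window were those of Kmt2a at 2.98 kb and Gadd45g at 2.25 kb.

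Deacetylase genes had regions at 4 of 9 members (44.4%), against 35.1% of all protein-coding genes. The 4 class IIa genes, whose products shuttle between nucleus and cytoplasm, all had regions, 21 in total. The class I genes Hdac1, Hdac2 and Hdac3, with Hdac11 and Sirt1, had none. These 5 genes are all 10 to 30 kb long, a length at which 28.7% of all protein-coding genes had a region, whereas the 4 class IIa genes are all over 30 kb. The class IIa genes are also longer, with a median of 159.4 kb against 26.5 kb for class I. They held 1.66 regions per 100 kb (1.03 to 2.54), near the 1.62 of all protein-coding genes. The 3 class I genes gave 0, with an upper limit of 3.61 per 100 kb, so at this number of genes a lower density was not detectable.

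Hdac9 is the longest member at 869.5 kb (chr12:34047580-34917095) and had 14 regions, 8 positive and 6 negative. The strongest region of all 60 stood here, at chr12:34278823-34279461, 639 bp wide with a score of 250.3, and 249 kb from the nearest listed start. It ranked 621 in the whole list by absolute score and was the one member region among the first 1000. For its width it was not high, since 29.7% of regions of like width scored higher. Other positive regions scored 92.5, 91.3, 63.2, 38.7, 30.3, 24.8 and 23.2, and the negative ones -54.3, -44.8, -33.4, -32.6, -29.6 and -18.4. The region of -44.8 was the widest of the set, at 790 bp, and 90.6% of regions of like width scored higher. Of the 64 protein-coding genes within 1.2-fold of its length, itself included, 32.8% had at least 14 regions, and the median was 8.

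Hdac4 had 2 negative regions in 266.9 kb, with scores of -103 (168 bp) and -84.4 (76 bp). For the narrower one, 2.38% of regions of like width scored higher. Hdac5 had 3 in 34.4 kb, with scores of 92.7, -57.7 and -21.4, and 6.09% of genes within 1.2-fold of its length had as many. Hdac7 had 1 of each sign (29.2 and -24.4).

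None of the 3 acetyltransferase members had a region, whereas 35.1% of all protein-coding genes had one. Outside the members, the acetyltransferase gene Kat6b had 9 regions in 173.3 kb, and Kat2a, Kat5, Kat6a, Kat7, Kat8 and Hat1 had none. Ep300 and Crebbp, which encode the p300 and CBP coactivators, lay 73.9 and 53.0 kb from their nearest regions, and Kat2b (PCAF) 143.5 kb. Together they span 3.34 windows of 100 kb, and the Poisson interval of a count of 0 reached 1.10 regions per 100 kb, against 1.62 for all protein-coding genes. Crebbp and Kat2b are each over 100 kb long. Among genes within 1.2-fold of their lengths, 19.7% and 24.5% had no region. Ctcf, whose product binds DNA in a methylation-sensitive way, also had none, with a region of score -108 at 22.0 kb.

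The members without a region stood at varied distances from one. The nearest region was 5.18 kb (Kdm1a) to 291.8 kb (Kdm4c) away for the 24 genes, with a median of 55.7 kb. It was negative for 19 of the 24, where 67.4% of the whole list was negative, and the difference was not tested. Kdm4c is 163.4 kb long, and 16.3% of genes of like length had no region. No region lay within 50 kb of 13 members (26.5%), against 31.5% of all protein-coding genes. These were 11 histone enzyme genes (Ezh2, Eed, Suv39h2, Kdm4c, Hdac1, Hdac2, Hdac3, Sirt1, Ep300, Crebbp and Kat2b) and 2 DNA methylation genes (Tdg and Gadd45a).

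Scores at the members had a lower median than the whole list, a difference that was not tested. The 66 further genes described below had a higher median, 62.0. The median absolute score was 38.6 (quartiles 29.0 and 69.4), against 49.4 (33.1 and 77.2) for all 34139 regions. Absolute scores of 100 or more were found in 6 regions (10%), against 15.5% of the list, and 6 of 49 genes (12.2%) had one, against 10.8% of all protein-coding genes. Scores rise with width, from a median of 34.3 below 100 bp to 170.8 at 500 bp and over. The members' regions were of ordinary width (median 105 bp against 112 bp). Within 5 width classes, 24 of the 60 scored above the median of all regions of that class. The count was 12 of 28 under 100 bp, 6 of 16 from 100 to 150 bp and 4 of 12 from 150 to 250 bp. Per base pair, Mbd3 (1.67), Dnmt3a (1.42), Kmt2b (1.39) and Kmt2a (1.27) had the highest single regions, against a median of 0.430 in the list.

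**Figure D4:**
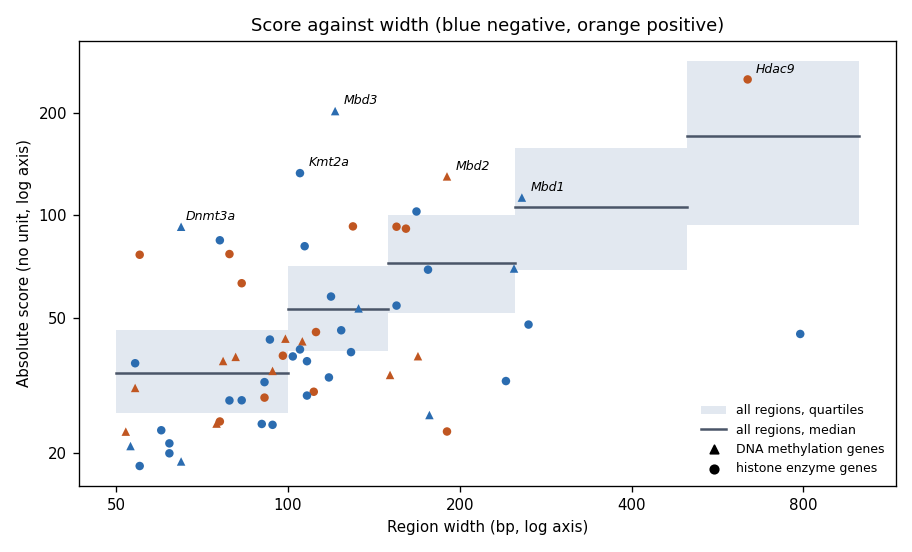
Absolute score (y axis, log scale) against region width (x axis, bp, log scale) for the 60 member regions, over the median and quartiles of all 34139 regions in 5 width classes (the last includes all wider regions). The Mbd3 region and the highest-scoring regions of Kmt2a (-133) and Dnmt3a (-92.5) lie above the quartile band of their width, whereas the Hdac9 region of score 250.3 lies within it.

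Most regions, 54 of 60, lay inside gene bodies, 3 upstream (Gadd45g, Kmt2a and Setdb1), 2 downstream (Ezh1 and Kmt2a) and 1 outside Mbd1, for which the table gives no strand. Exons and introns could not be told apart with the annotation used. Of all 60, 7 also lay within 5 kb of another protein-coding gene. The genes Hdac9, Tet3 and Kmt2a together held 26 of the 60, and 13 members had a single region.

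A list of 66 further genes of these families and complexes had regions in 32 (48.5%), against 51.0% of the members and 35.1% of all protein-coding genes. They held 75 regions, 58.7% of them negative (47.4 to 69.1), at 1.54 per 100 kb (1.21 to 1.93). The genes called further histone enzyme genes were listed by family and complex, with Polycomb subunits and the other sirtuins, so not every product is a histone enzyme. Their median absolute score was 62.0, above the 38.6 of the members and the 49.4 of the list. Of 10 further DNA methylation genes 6 had regions, 4 with positive and 2 with negative regions alone, and 3 of their 7 regions were negative. Of 56 further histone enzyme genes 26 had regions, 16 with negative and 5 with positive regions alone, and 60.3% (48.4 to 71.1) of their 68 regions were negative. The largest absolute scores stood at Bmi1, a Polycomb gene (298), Smyd3 (-180.1, among 23 regions in 566.1 kb), Mbd6 (177), Ash1l (-173), Zbtb4, a reader of methylated DNA (-152), Smyd2 (-151), Kat6b (-128), the H3K9 methyltransferase gene Suv39h1 (-126), Sirt4 (-112) and Phf2 (111). The negative share at the further DNA methylation genes was 42.9%, with an interval from 15.8 to 74.95 that includes the share at the further histone enzyme genes.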

How the data were processed

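The submitters deposited 1 list of regions between the 2 bisulfite libraries, 1 per group, with chromosome, start, end and a signed score and no header. Per the submitters' processing notes the build is mm10. No aligner, caller, threshold or read depth is given in the sources used. The deposited score is the authors' own value per region, with no stated unit, and was used only to describe and rank regions within the list. Starts were converted to count from 1.

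Genes came from the RefSeq table of GRCm38.p6, with 21887 protein-coding genes on the chromosomes. A region counted for a gene when it overlapped the gene body plus 5 kb by at least 1 bp. Regions shared by genes counted for each gene but once in shares of sign. Strand and starts came from the RefSeq promoter windows, and 34 of 34 overlapping windows of opposite strands on chromosome 19 were reverse complements. Shares have 95% Wilson intervals and densities exact Poisson intervals (Python 3.11.15, pandas 2.3.3, scipy 1.17.1, statsmodels 0.14.6). Depth is unknown, so no coverage filter or test of a region was possible. The overlap step, checked on simulated regions, gave 0 wrong counts over 705 genes of chromosome 19 at 3 flanks.

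The members, roles and lists were chosen with earlier results of these data known. Genes were chosen for single description by a region of absolute score 100 or more or by at least 5 regions. A region within 2 kb of a gene start or gene end also counted. Other members with regions were described more briefly, with their scores. Of the 66 related genes the 10 with the largest absolute scores were named. Alternatives were other flanks (0, 2 and 50 kb), absolute scores of 100 or more, widths of 100 bp or more, at least 50% of a region inside, shared regions left out, and the member with the most regions left out.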

Additional observations from a re-analysis of the deposited data

How the results depend on the processing

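The 7 counts, shares and densities were recomputed under 8 alternatives, and 45 of 56 values stayed within 1.5 times the reported count or inside its interval. With absolute scores of 100 or more, members with a region fell to 6 in all, 3 DNA methylation and 3 histone enzyme genes, against 10.8% of all protein-coding genes. The densities were then 0.381 (0.0786 to 1.11) and 0.0924 (0.0191 to 0.270) per 100 kb, each from 3 regions and with intervals that overlap. The negative share at DNA methylation genes was 66.7% of 3 regions. With widths of 100 bp or more, 15 members, 8 of them histone enzyme genes, had a region (25.4% of all genes), at 1.14 and 0.708 per 100 kb for DNA methylation and histone enzyme genes. The smaller numbers follow from the fewer regions kept. Without Hdac9 the negative share at histone enzyme genes was 81.5%. With 50 kb on both sides the negative shares were 55.6% and 69.0%. No paired analysis was possible because each group has 1 library and no test was made. Unknown read depth limits every value: whether genes without a region were covered is not known.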
